A study of Drosophila melanogaster with 2 samples.

Results

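The genes described here were the small nucleolar RNA (snoRNA) genes of *Drosophila melanogaster* and the host genes that carry them. All 269 genes of biotype snoRNA in the Ensembl release 115 annotation were taken, out of 18277 genes other than transposable elements. A host was any other gene on the same strand that overlapped the snoRNA gene, which gave 95 hosts for 247 snoRNA genes and left 22 without a host. Of the 247, 12 had 2 hosts. Binding of Kahuli (Kah), a Snail-family DNA-binding protein with zinc fingers, had been mapped in whole embryos by ChIP-seq, which sequences DNA recovered with a protein by an antibody. The labels describe 1 group of 2 biological replicates from a transgenic line stably expressing Kah with a C-terminal GFP, at 0 to 16 h and with both sexes pooled. Both libraries thus held many tissues and stages, and cells that bind Kah could not be told apart from cells that do not. The antibody is labelled kah, whereas a free-text line of both libraries calls them an input control, and the lists were treated as ChIP-seq peaks. Peak lists hold no expression values, so the labelled stage was not checked against marker genes.

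Candidate peaks numbered 30000 in replicate 1, 30000 in replicate 2 and 30000 in a list called on the 2 replicates combined (the pooled list). The peaks kept by the authors on the irreproducible discovery rate (IDR) numbered 4105. They were the pooled candidates of highest signal, down to 149.7, so the IDR threshold here is a cut on pooled signal. Signal is the score each peak got from the authors' caller, in units that are not stated, and read depth is unknown. Of the IDR summits, 3902 had a summit within 100 bp in both replicate lists, and over these the log2 of replicate 2 over replicate 1 had a median of 0.07 and an SD of 0.57, or 1.49-fold. The IDR list was selected by agreement of the same 2 replicates, so recurrence in them is not independent support.

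A snoRNA is a short nuclear RNA that guides a chemical modification of another RNA by base pairing. Box C/D snoRNAs direct methylation of ribose by the enzyme fibrillarin, box H/ACA snoRNAs direct conversion of uridine to pseudouridine, and the related scaRNAs act on spliceosomal RNAs in Cajal bodies. In flies most lie in introns of other genes and are cut out of the host's transcript, so that the host promoter usually drives them, and many hosts encode ribosomal proteins or are non-coding snoRNA host genes named Uhg.

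Both families are shown by snoRNA genes that lay next to a Kah peak at the promoter of their host. Capitals mark box C (TGATGA) and box D (CTGA) in the box C/D genes, and the ACA near the end of the box H/ACA genes. U49:66Da lies in RpL14 (chr3L:8601473-8601552, plus strand), Me28S-A774b in RpS12 (chr3L:13023580-13023652, plus strand), Psi18S-920 in RpL10Ab (chr3L:11822984-11823124, plus strand) and Or-aca2 in RpS6 (chrX:7901062-7901203, minus strand), all in dm6.
U49:66Da: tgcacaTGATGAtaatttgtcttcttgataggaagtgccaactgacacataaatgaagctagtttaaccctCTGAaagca
Me28S-A774b: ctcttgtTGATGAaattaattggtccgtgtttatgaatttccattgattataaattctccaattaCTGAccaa
Psi18S-920: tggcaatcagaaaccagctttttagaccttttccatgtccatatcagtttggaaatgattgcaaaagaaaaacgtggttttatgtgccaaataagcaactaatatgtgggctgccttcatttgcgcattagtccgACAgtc
Or-aca2: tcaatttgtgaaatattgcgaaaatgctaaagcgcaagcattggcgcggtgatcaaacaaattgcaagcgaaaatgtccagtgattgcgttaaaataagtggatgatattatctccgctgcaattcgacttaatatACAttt

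In these 4 places the summit lay upstream of the snoRNA and near the start of its host. The summit was 463 bp upstream of U49:66Da and 4 bp downstream of the RpL14 transcription start site (TSS), with a signal of 317.5 in replicate 1, 334.2 in replicate 2 and 648.8 in the pooled list. For Me28S-A774b it was 216 bp upstream, with 153.4, 177.5 and 329.2 in the same order of lists. For Psi18S-920 it was 116 bp upstream, with 76.98, 98.97 and 164.6. The summit at Or-aca2, 74 bp upstream, had 103.8, 104.0 and 209.6. None of the 4 snoRNA sequences held a summit.

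Most snoRNA genes had no Kah peak at their own start. An IDR summit lay within 500 bp of the start of 20 of the 269 snoRNA genes (7.43%), against 12.5% of the 18008 other genes. A pooled candidate was there for 60 (22.3%), against 46.4% of other genes. A candidate in both replicate lists was there for 47 (17.5%), against 36.9% of other genes, with 59 in replicate 1 and 77 in replicate 2. The remaining 209 snoRNA genes had no pooled candidate. For comparison with another class of short genes, 6.21% of 290 tRNA genes had an IDR summit at the start. The difference between snoRNA genes and these groups was not tested. By the kind of RNA in the name, the IDR summits fell at 6 of 109 box C/D genes (5.50%), 10 of 114 box H/ACA genes (8.77%), 0 of 16 scaRNA genes and 4 of 30 genes with other names (13.3%).

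Among hosted snoRNA genes, summits at the start were most frequent where the host TSS was near. For a start within 500 bp of that TSS, the window itself contains the TSS, so these counts are not independent of host promoter summits. In hosted genes the start lay a median of 1433 bp from the nearest host TSS (quartiles 753.0 and 2564 bp). Of the 35 that began within 500 bp of it, 11 had an IDR summit (31.4%) and 21 a pooled candidate. Of the 51 that began between 500 and 1000 bp from it, 3 had an IDR summit (5.88%) and 10 a candidate (19.6%). Of the 161 that began farther away, 1 had an IDR summit (0.621%) and 13 a candidate (8.07%). Without replicate 1, taking as many of the top candidates of replicate 2, the IDR count of 1 in the farthest class became 3, and it ranged from 0 to 6 over the settings tried, so no statement rests on it.

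**Figure D1:**
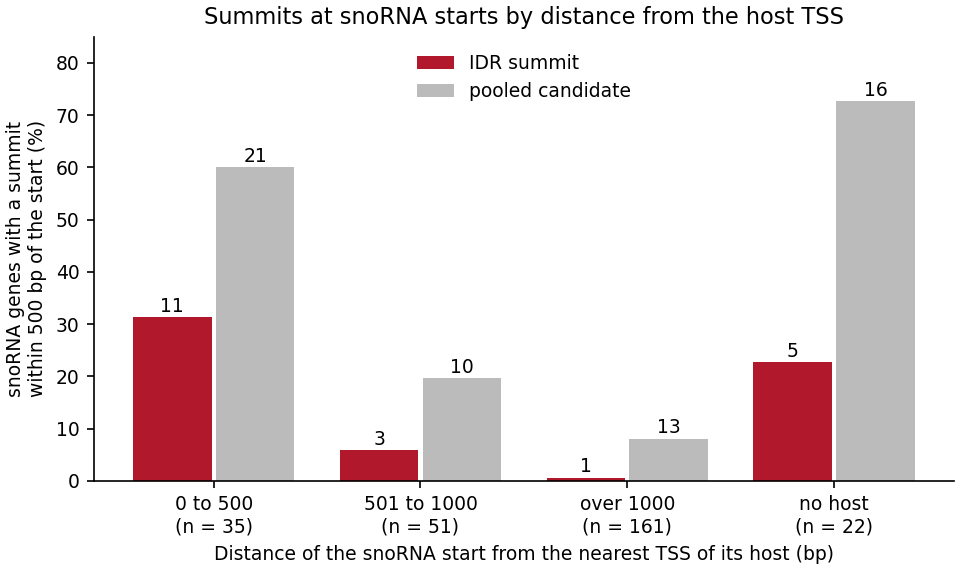
Share of snoRNA genes (%) with an IDR summit (red) or a pooled candidate (grey) within 500 bp of the start, by distance of that start from the nearest TSS of the host in bp, with counts above the bars. IDR summits were at 11 of 35 genes in the nearest class and 1 of 161 in the farthest, and at 5 of 22 genes without a host.

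The farthest class was set beside the sequence around it. In the hosts, 3.04% of bases more than 1000 bp from every own TSS lay within 500 bp of an IDR summit, and in all protein-coding genes 1.75% did. The 8 hosts longer than 30000 bp held 64.0% of those host bases but only 11 of the 161 distant snoRNA genes. When each distant snoRNA gene was set beside the interior of its own host, a mean of 1.08% of interior bases lay within 500 bp of an IDR summit and 10.2% within 500 bp of a pooled candidate. The values for the snoRNA starts themselves were 0.621% and 8.07%, and the first of them rests on 1 gene. A stretch of 30 bases found elsewhere in the assembly was present in 54 of the 161, in 73 of all 269 snoRNA genes and in 2 of the 20 with an IDR summit. The treatment of reads with several matches is not stated, and the part of such stretches in the counts was not tested.

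Of the 20 snoRNA genes with an IDR summit at the start, 14 had it at the promoter of their host, defined as within 500 bp of any host TSS. Those 14 shared 13 summits, since Psi28S-2949 and Or-aca5 both lie in Uhg4, a non-coding snoRNA host gene whose summit had 337.2 in replicate 1, 349.9 in replicate 2 and 682.8 in the pooled list. Ribosomal protein genes hosted 9 of the 14, namely Psi28S-2648 in RpL36A, Or-CD11a in RpL28, U49:66Da in RpL14, Psi18S-920 in RpL10Ab, Me28S-A774b in RpS12, Psi18S-1275 in RpS29, Me18S-C1096 in RpL3, Psi28S-1232 in RpL17 and Or-aca2 in RpS6. Or-aca2 also overlaps the pseudogene CR33222, a non-coding host that shares the RpS6 summit. The Uhg genes held 4, those outside Uhg4 being Me18S-A1576 in Uhg2 and Me28S-C2645a in Uhg3. The last of the 14 was gcl-a in gcl, which acts in germ cell formation. In all 14 snoRNA genes the summit lay upstream of the start, by 74 to 489 bp.

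In the remaining 6 snoRNA genes the summit was not at a host promoter, and the 6 rest on 4 distinct summits. All 6 lie on chromosome 2R, which holds 96 of the 269 snoRNA genes, and this placement was not tested. Psi18S-176, an H/ACA snoRNA gene without a host, was the only snoRNA gene with an IDR summit inside it. Leaving out snoRNA genes, the TSS nearest to that summit was that of lncRNA:CR44805, 519 bp away. The summit was at 23840058, 6 bp from the snoRNA start, with a signal of 130.1 in replicate 1, 153.7 in replicate 2 and 295.1 in the pooled list. Psi28S-1153 and the genes FBgn0263472 and FBgn0263459, named only by position, are neighbours without a host that shared 1 summit at 13558084, with 70.72, 170.8 and 241.1 in the same lists. That summit was 461 bp from the TSS of the protein-coding gene CG13334, so it could belong to either. Or-ACA6, also without a host on its strand, had a summit 412 bp upstream at 10081737, inside egr, which encodes a tumour necrosis factor ligand. Its signal was 115.3 in replicate 2 and 212.3 in the pooled list, and in replicate 1 the nearest summit lay 112 bp away with 105.7. The hosted gene abba-a had a summit 468 bp upstream at 18994228, in an intron of tn, 3191 bp from the nearest TSS of that gene, with 87.59, 92.16 and 181.1. CAGGTG, the core binding site in the Snail family, was within 50 bp of none of these 4 distinct summits. Of all 4105 IDR summits 9.87% had it, so 4 summits are too few for a comparison.

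The 22 snoRNA genes without a host had summits at their starts more often than the 247 hosted ones. IDR summits were at 5 of 22 (22.7%) and 15 of 247 (6.07%), and pooled candidates at 16 (72.7%) and 44 (17.8%). The 5 rest on 3 summits. A candidate in both replicate lists was found for 10 of the 22. Of the 22, 10 lie within a gene on the other strand and 12 overlap no gene. The difference was not tested.

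The strongest signals below the IDR threshold among the genes without a host were at Psi18S-301 and snoRNA:185. Psi18S-301 (H/ACA) had 34.75 in replicate 1, 92.22 in replicate 2 and 123.4 in the pooled list, and snoRNA:185 had 39.82, 113.7 and 122.9. Both were higher in replicate 2 by more than 1 SD of the log2 ratio over IDR peaks. Psi28S-2622 (H/ACA) had 21.49, 61.44 and 85.48. The 3 genes for U3, an abundant C/D snoRNA needed to process ribosomal RNA, had little signal. U3:54Ab had 59.92 in the pooled list, U3:54Aa had 37.51, and U3:9B had no pooled candidate and 23.83 in replicate 2. In replicate 1 none of the 3 had a candidate.

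The starts of 6 host genes are shown next, each from 60 bp before to 10 bp from the canonical TSS. The promoter summits of RpL3, 45 bp downstream of the TSS, and of CG1142, 172 bp upstream, lay outside these windows. Neither ACAGGT nor GTCACA was within 50 bp of the CG1142 summit. Capitals mark TCTTT on the transcript strand in the 4 ribosomal protein genes. Only 10 of the 29 ribosomal protein hosts had that word at the TSS, so these 4 do not stand for the group. Capitals also mark the M1BP core GTCACA or its reverse complement. ACAGGT or its reverse complement ACCTGT, which overlaps the Snail-family site, is in capitals too. The windows are chr3L:8600946-8601015 on the plus strand for RpL14, chr3R:11221834-11221903 on the plus strand for RpL3, chr2L:19009228-19009297 on the minus strand for RpL30, chrX:17148255-17148324 on the minus strand for RpS5a, chr3L:18898284-18898353 on the minus strand for CG3902 and chr3R:7473772-7473841 on the minus strand for CG1142, in dm6.
RpL14: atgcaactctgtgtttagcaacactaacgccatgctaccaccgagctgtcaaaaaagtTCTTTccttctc
RpL3: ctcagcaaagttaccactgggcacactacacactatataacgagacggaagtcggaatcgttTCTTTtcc
RpL30: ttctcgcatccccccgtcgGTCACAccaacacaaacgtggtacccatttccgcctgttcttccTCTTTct
RpS5a: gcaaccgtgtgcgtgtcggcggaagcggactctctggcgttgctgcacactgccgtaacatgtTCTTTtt
CG3902: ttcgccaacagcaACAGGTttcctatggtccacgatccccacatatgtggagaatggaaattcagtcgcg
CG1142: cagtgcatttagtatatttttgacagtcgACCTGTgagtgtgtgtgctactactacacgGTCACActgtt

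Host promoters carried Kah peaks more often than snoRNA starts did. An IDR summit lay within 500 bp of a TSS in 51 of the 95 hosts (53.7%), and a pooled candidate in 83 (87.4%). In 81 of them both replicate lists also had a candidate there. Among the 84 protein-coding hosts the counts were 46 with an IDR summit (54.8%), against 17.0% of all 13968 protein-coding genes, and 75 with a candidate (89.3%), against 53.4%. Between hosts that differ in the number of snoRNA genes, IDR promoter summits were found at 27 of 56 with 1 (48.2%), 18 of 24 with 2 to 4 and 6 of 15 with 5 or more (40.0%).

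The 50 distinct strongest promoter summits of the hosts had a median pooled signal of 292.3 (150.3 to 1300). Over the 48 with a match in both replicates, the median was 143.1 in replicate 1 and 161.9 in replicate 2. All 2072 IDR summits at protein-coding promoters had a pooled median of 248.1. Host summits were spread along the IDR list of 4105, with 8 of the 50 among the 500 of highest signal, 17 among the top 1000 and 30 among the top 2000. Their median rank from the highest signal was 1406, and the difference from an even spread was not tested. Of the 48 matched in both replicates, 35 lay within 1 SD of the median log2 ratio of all IDR peaks. The 2 beyond 2 SD were those of lola and kra. At kra, a regulator of translation, the signal was 53.07 in replicate 1 and 174.6 in replicate 2, and at lola, a transcription factor gene, it was 34.87 and 180.9. Both peaks thus rest mainly on replicate 2.

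**Figure D2:**
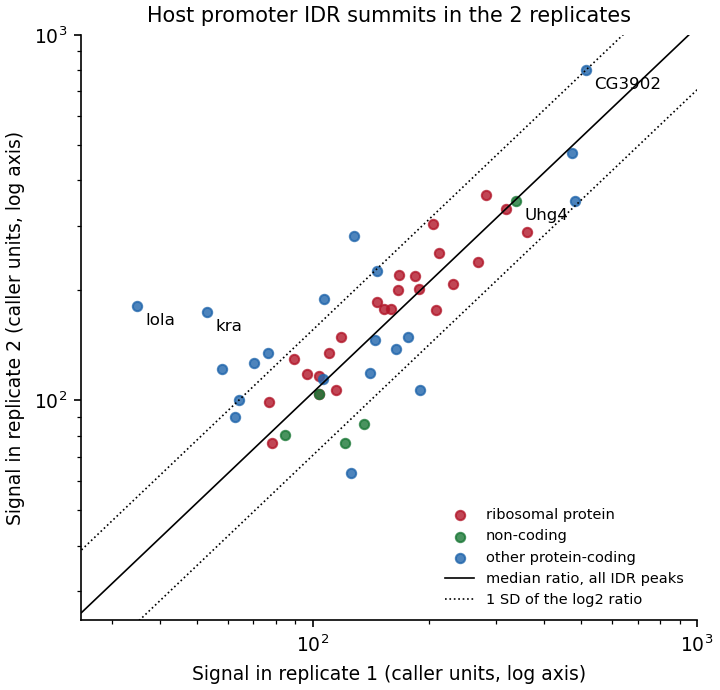
Signal of the strongest host promoter IDR summit in replicate 1 (x axis) and replicate 2 (y axis), in the caller's units on log axes, with 1 point per host coloured by host group. The solid line is the median ratio of all IDR peaks and the dotted lines 1 SD of the log2 ratio, and 35 of 48 distinct summits fall between them.

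Ribosomal protein genes made up 29 of the hosts and held 76 of the snoRNA genes. An IDR summit lay at the promoter of 25 of them (86.2%), against 75.4% of the 57 ribosomal protein genes that host no snoRNA, and all 29 had a pooled candidate and a candidate in both replicate lists. Their median pooled signal at IDR promoters was 346.6, and 338.3 at ribosomal protein genes that are not hosts. The difference of the shares was not tested. All 24 summits with a match in both replicates lay within 1 SD of the median log2 ratio. The 4 hosts without an IDR peak had weaker candidates, at RpS20 (137.3), RpS9 (122.6), RpL15 (106.2) and RpL5 (93.99).

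Of the 12 hosts with the strongest promoter summits, 7 were ribosomal protein genes. RpS16 had 359.9 in replicate 1, 288.6 in replicate 2 and 659.1 in the pooled list. RpS4 had 282.2, 364.7 and 625.5 in these lists, and RpL14 had the values given above. RpL30 followed with 205.5, 303.4 and 512.3, RpL28 with 268.5, 238.2 and 496.4, RpL3 with 212.6, 252.4 and 467.7, and RpS7 with 231.9, 208.2 and 437.1. The signals of each pair of replicates differed by less than 1 SD of the log2 ratio. A TSS of another gene also lay within 500 bp of the summits of RpS16 (CG4294), RpL14 (Nelf-E), RpL28 (eIF1) and RpL3 (CG6693). RpS7 holds 7 snoRNA genes, RpS16 and RpL28 hold 5 each, and RpL30 holds 1.

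The remaining strong host promoters were of mixed function. The strongest belonged to CG3902, which encodes a predicted acyl-CoA dehydrogenase, with 513.1 in replicate 1, 800.2 in replicate 2 and 1300 in the pooled list, 23 bp upstream of the TSS and next to the ACAGGT shown. Stt3A, a catalytic subunit of the oligosaccharyltransferase that glycosylates proteins, had 471.5, 476.2 and 945.8, but this summit was 404 bp upstream and within 500 bp of a TSS of bves. CG1142 had 482.5, 349.9 and 838.5 at 172 bp upstream, Uhg4 had the values given above, and the dystrophin gene Dys had 128.1, 281.3 and 402.9 at an internal promoter. Dys differed between the replicates by 1.87 SD of the log2 ratio, after centring, and CG3902 by 1.00 SD.

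**Figure D3:**
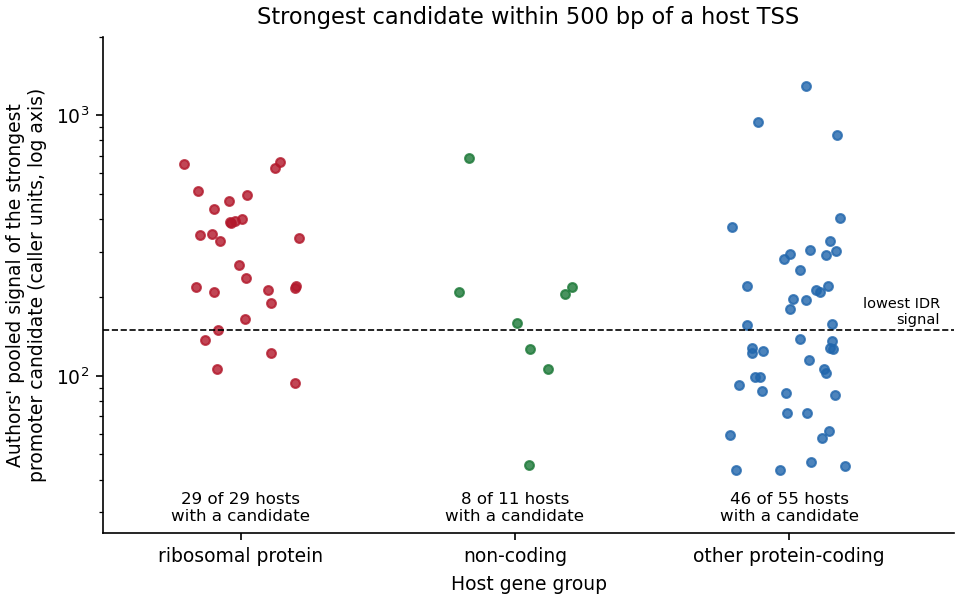
Pooled signal of the strongest candidate within 500 bp of a host TSS (caller's units, log axis) for each host with one, by host group. The dashed line is the lowest IDR signal, 149.7, above which lie 25 of 29 ribosomal protein, 5 of 11 non-coding and 21 of 55 other protein-coding hosts.

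Non-coding hosts had an IDR promoter summit in 5 of 11 cases (45.5%), against 6.17% of all 3289 ncRNA genes, and a candidate in 8. These 11 genes, most of them spliced transcripts whose introns hold snoRNAs, carried 56 of the snoRNA genes. After Uhg4, the signal in replicate 1, replicate 2 and the pooled list was 136.1, 86.02 and 218.6 at Uhg2, 121.3, 76.55 and 206.8 at Uhg8, and 84.81, 80.18 and 158.9 at Uhg3. The pseudogene CR33222, which is among these 5 but not among the ncRNA genes compared, shared its summit of 209.6 with RpS6. Of these 5 summits, those of Uhg2 and Uhg8 also lay within 500 bp of a TSS of another gene, Bka and CG5199. Uhg5 with 126.8, Uhg1 with 106.4 and lncRNA:CR45184 with 45.59 had candidates below the IDR threshold, and Uhg7, lncRNA:CR42491 and lncRNA:CR31647 had no candidate.

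The 55 other protein-coding hosts had an IDR summit at 21 promoters (38.2%) and a candidate at 46. They had a mean of 2.00 annotated TSSs, and all protein-coding genes 1.41. With the canonical TSS alone, 13 of 55 (23.6%) had an IDR summit, against 14.6% of all protein-coding genes. In ribosomal protein hosts the canonical TSS gave the same 25 of 29. Among genes with a candidate, 45.7% of these hosts and 31.8% of all protein-coding genes had an IDR summit.

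**Figure D4:**
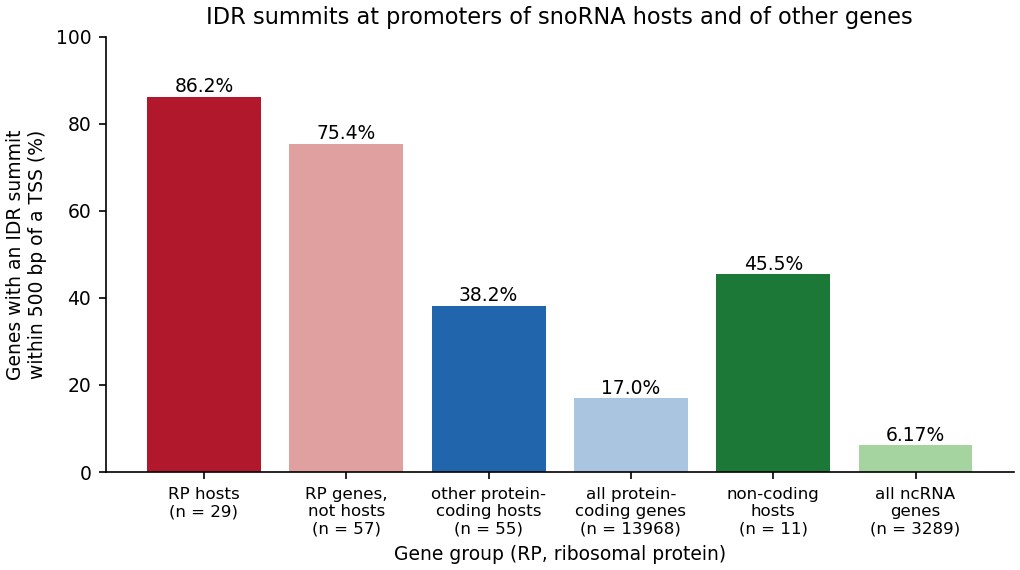
Share of genes (%) with an IDR summit within 500 bp of any TSS, for 3 groups of snoRNA hosts, each left of its comparison group. Ribosomal protein hosts reached 86.2% beside 75.4% of non-host ribosomal protein genes, other protein-coding hosts 38.2% beside 17.0%, and non-coding hosts 45.5% beside 6.17%. Non-coding hosts include the pseudogene CR33222, which their comparison group of ncRNA genes leaves out.

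Of the 11 hosts richest in snoRNA genes, 4 had an IDR promoter summit and 10 a pooled candidate, beside 53.7% and 87.4% of all hosts, and no difference was tested. Arpc2, a subunit of the actin-nucleating Arp2/3 complex with 17 snoRNA genes, had a pooled candidate of 99.40 with 69.93 in replicate 1 and none within 100 bp in replicate 2. Uhg1 with 16 had 106.4, with 39.81 in replicate 2 and no summit within 100 bp of the pooled one in replicate 1. Within 500 bp of Me28S-G3081a, which starts 111 bp from the Uhg1 TSS, the strongest candidates had 43.94 in replicate 1 and 69.14 in replicate 2. The chromatin remodeller gene dom, with 15, had no candidate at its promoter. None of these 3 had an IDR promoter summit.

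Other hosts with many snoRNA genes lay on both sides of the IDR threshold. RpS5a, with 14 snoRNA genes, had 159.4 in replicate 1, 177.8 in replicate 2 and 346.6 in the pooled list. Uhg5, with 11, had 42.77, 85.34 and 126.8, the splicing factor gene Sf3b3, with 9, had 29.98, 56.55 and 85.83, and kra, with 8, had a pooled 220.8. The hosts with 7 each were Uhg4 and RpS7, above the threshold, and Hrb98DE, which encodes an RNA-binding protein, with 62.79, 48.80 and 115.3. The last, Nop60B, encodes the pseudouridine synthase of H/ACA particles and had 73.06, 59.41 and 126.7.

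Values near the threshold show how close some calls were. Close above it were tou, a chromatin factor gene, at 156.1 and the splicing factor gene SC35 at 158.0. Just below were CG43051 at 138.1, RpS20 at 137.3 and Fib, which encodes fibrillarin, at 135.9. RpS20 had 33.77 in replicate 1 and 105.0 in replicate 2, whereas Fib had 60.61 and 64.30.

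The proteins of snoRNA particles gave a mixed picture. Of 16 listed genes, 7 had an IDR summit at the promoter (43.8%) and 13 a candidate (81.2%), beside 17.0% and 53.4% of all protein-coding genes. Of the C/D core genes, nop5 (195.2) and hoip (189.3) passed, and Fib (135.9) and Nop56 (106.5) had candidates. Of the H/ACA core genes, Nop10 (469.6) and NHP2 (359.5) passed, and Nop60B (126.7) and Gar1 (65.57) had candidates. Among assembly factors pont (357.9) and Nufip (236.0) passed, while rept, the partner of pont, and CG10341 had none. Nopp140 (163.2), a nucleolar chaperone, passed, coil (119.7) and Phax (42.96) had candidates, and Tgs1, which methylates RNA caps, had none. Fib, nop5 and Nop60B are also snoRNA hosts.

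In hosts with an IDR promoter summit it lay close to the TSS. In 40 of 51 (78.4%) the strongest one was within 100 bp, against 846 of the 2375 protein-coding genes with such a summit (35.6%). The median position was 5 bp upstream in hosts and 110.0 bp upstream in all protein-coding genes. All 25 ribosomal protein hosts were within 100 bp, as were 42 of 43 ribosomal protein genes that host none, a share found in both kinds of ribosomal protein gene. Of the 21 other protein-coding hosts, 11 were within 100 bp. In 20 of 51 hosts (39.2%) a TSS of another gene was also within reach of 500 bp, against 50.1% of all protein-coding genes with one, and for these the gene served by the peak could not be told apart.

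**Figure D5:**
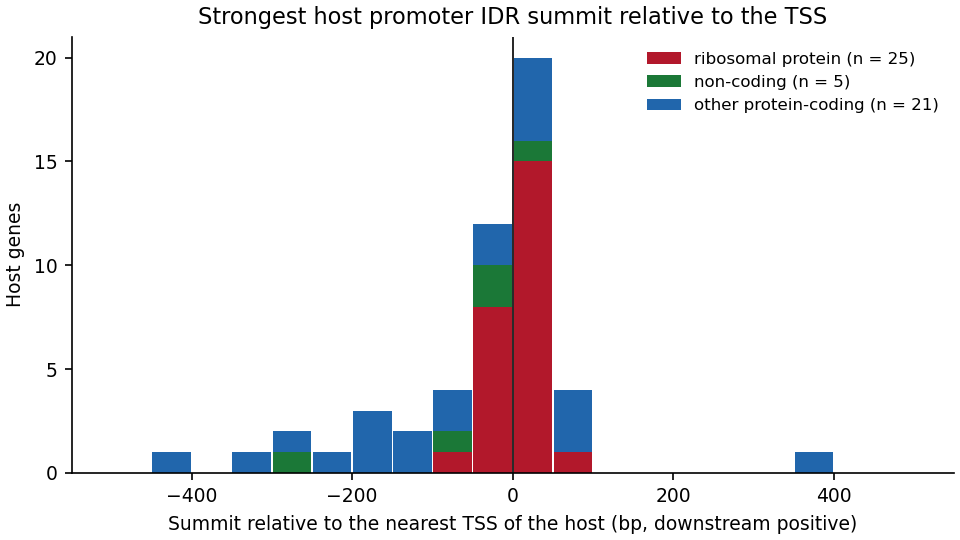
Number of hosts by position of the strongest promoter IDR summit relative to the nearest TSS of the host, in bins of 50 bp with downstream positive, stacked by host group. All 25 ribosomal protein hosts lie within 100 bp of the TSS, and other protein-coding hosts reach from 404 bp upstream to 398 bp downstream.

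The pyrimidine word TCTTT was more frequent at the TSS of ribosomal protein hosts than of all protein-coding genes, though most of these hosts lacked it. The word TCTTT began within 5 bp of the canonical TSS in 15 of 95 hosts (15.8%), against 1.65% of all protein-coding genes. Ribosomal protein hosts made up 10 of these (10 of 29, 34.5%), beside 43.9% of ribosomal protein genes that host no snoRNA. All 10 had an IDR promoter summit. The 5 outside that group were pths, Uhg5, Uhg1, pAbp and Sf3b3, and none of these 5 had one, beside 26 of the 61 hosts outside that group without the word (42.6%). Of the 192 protein-coding genes with the word that are neither hosts nor ribosomal protein genes, 26 had an IDR promoter summit (13.5%). In all hosts the word was at 19.6% of those with an IDR promoter summit and 11.4% of those without. None of these differences was tested. Uhg5, Uhg1 and Sf3b3 are those named above with candidates of 85.83 to 126.8.

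The Snail-family site was found at few host promoter summits, at a share close to that of all promoter IDR summits. CAGGTG, read on both strands within 50 bp of the summit, was at 5 of 50, against 9.70% of all 2072 promoter IDR summits. Among them were RpS16, SC35, hts and CG12316, and 1 of the 25 summits of ribosomal protein hosts held it, that of RpS16. ACAGGT, which overlaps CAGGTG by its last 5 bases, was at 1 (2.00%, CG3902) beside 9.46%, and CACTTG was at 1 (2.00%, CG12316) beside 9.99%. TATCGATA, the site of the factor DREF, was at 2 of 50, a share above the 2.56% of all promoter IDR summits. GTCACA was at 3 of 50, slightly above 5.65%, and GAGAGA at 1 (2.00%), below 7.53%. Matches describe the letters only, and no difference was tested.

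Kah peaks inside hosts, defined as more than 500 bp from every own TSS, were fewer and lay in long genes. There were 35 distinct IDR summits in 13 hosts (13.7%), or 15.5% of the protein-coding hosts, against 7.38% of all protein-coding genes. Of the 95 hosts, 42 had IDR summits at the promoter only, 9 at the promoter and inside, 4 inside only and 40 in neither place. The 29 ribosomal protein hosts had 0 inside summits in 39.50 kb of such sequence. Hosts had 3.94 inside summits per 100 kb, and all protein-coding genes 1.99. Of the 8 hosts longer than 30000 bp, 7 had an inside summit, and they held 26 of the 35, while of the 78 hosts of up to 10000 bp 3 did. In protein-coding genes longer than 30000 bp, 41.8% had an inside summit, and the rate was 4.78 per 100 kb in the hosts of that length and 1.54 in all such genes.

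The 13 hosts with inside summits were named after their values were seen. Dys, kis and tou had 5 each, Msp300, which anchors muscle nuclei, drn, skd and lola had 3 each, hts and Rbfox1 had 2 each, and Stt3A, pAbp, x16 and tn had 1 each. The strongest inside summits were in hts (212.0 in replicate 1, 281.5 in replicate 2 and 478.3 in the pooled list), Msp300 (206.7, 191.3 and 408.1) and Dys (212.8, 182.0 and 399.3). The median pooled signal of all 35 was 220.6. For the strongest inside summit of each of the 13 hosts it was 289.4, close to the 292.3 of the strongest host promoter summits. They lay in introns in 34 cases and in an exon, of drn, in 1.

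The inside summits were also set beside the snoRNA genes. Their median distance from the nearest snoRNA start was 9004 bp, and 1 of 35, that of abba-a in tn, was within 500 bp (2.86%). Of the host bases counted as inside, 13.2% lie within 500 bp of a snoRNA start, and the mean over the 35 summits of that share in their own host was 5.60%. A TSS of another gene lay within 500 bp of 4, among them the one in x16, which is also the promoter summit of nop5. CAGGTG was within 50 bp of 0 of the 35, against 9.87% of all 4105 IDR summits. CACTTG was at 7 of the 35, a higher share than the 10.5% of all IDR summits. No difference was tested.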

How the data were processed

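ChIP-seq was made from 2 libraries of 1 group, so no groups were compared. The authors deposited narrowPeak lists in dm6 coordinates, per the labels. From these the signal column of each deposited list (the value of the authors' peak caller, scaling not stated) and the summit offset from the interval start in bp were used. The candidate list of each replicate came, per the file listing deposited with it, from that replicate's alignment and 1 shared control alignment. The pooled list and the IDR list are given there as derived from both replicates. Fragments were 200 to 800 bp, per the labels. The sources used here do not name the aligner, peak caller or filters, and read depth is unknown, so no counting interval is given.

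Coordinates are 1-based. Genes came from Ensembl release 115 and sequence from the Release 6 assembly. A host shared strand with the snoRNA gene and was no transposable element. A summit belonged to a start or TSS within 500 bp, was inside a host if farther from every own TSS, and matched in another list within 100 bp. Where several summits lay in a window the strongest was taken, and at host promoters the replicate value is that of the nearest summit within 100 bp of the pooled one. Motifs were read within 50 bp of a summit on both strands. The work used python 3.11.15, numpy 2.4.6 and matplotlib 3.10.9, and the counting steps were tested on simulated peak lists. No p-value was computed, and shares are set beside the same over all genes.

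Named were the 12 hosts of highest promoter signal, the snoRNA genes with an IDR summit not at a host promoter, those without a host, the hosts with most snoRNA genes (11, because of a tie), 3 hosts on each side of the IDR threshold and 16 genes of snoRNA particles. Other genes were named after their values were seen, and some genes that these rules select are not reported here. The members and lists were chosen with earlier results of these data known. Alternatives were other windows, the strongest IDR peaks, each replicate alone, other match distances, hosts on either strand and canonical TSSs.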

Additional observations from a re-analysis of the deposited data

How the results depend on the processing

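Of 88 values recomputed under 9 settings, 75 stayed within 1.5 times (counts) or 1 SD of the log2 replicate ratio (medians) of the value reported, and 13 did not. The windows account for most of these by their own construction. At 250 bp, 9 snoRNA genes had an IDR summit at the start, 32 a pooled candidate, 21 a candidate in both replicate lists, and 0 of those over 1000 bp from a host TSS had an IDR summit. At 1000 bp these counts were 53, 133, 115 and 6. With the 2052 strongest IDR peaks alone, 11 snoRNA starts, 0 distant starts and 30 host promoters had a summit. Hosts on either strand gave 2 distant starts. With 1 replicate left out, using as many top candidates of the other, distant starts with a summit ranged from 1 (without replicate 2) to 3 (without replicate 1), all snoRNA starts from 18 to 28 and host promoters from 50 to 53. The count of candidates in both lists has no value then. With canonical TSSs, 43 hosts had an IDR promoter summit. The count at distant starts is therefore too small to rest a statement on. No paired analysis was possible because there is 1 group. Depth is unknown, so a snoRNA gene without a candidate may lie below what these lists could hold, and each list ends at 30000 candidates.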
